A study of Mus musculus with 6 samples.

Results

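The enzymes that build nucleotides and carry one-carbon units were examined in mouse embryonic hearts in which the genes of the RNA-binding proteins RBPMS and RBPMS2 were targeted for deletion in cardiomyocytes. The group comprised 37 named genes, chosen by function but with earlier results of these data known. It held 15 of purine synthesis and salvage, 8 of pyrimidine synthesis and nucleotide phosphorylation, 9 of deoxynucleotide supply and 5 of folate metabolism. All 37 were among the 45706 genes of the deposited table and all had a mean value of at least 10 over the hearts, as had 15556 genes in all, which were the genes tested. Poly(A) RNA of 6 hearts of strain C57BL6/J was sequenced. Of these, 3 were littermate controls homozygous for floxed alleles of both genes (RBPMS flox/flox RBPMS2 flox/flox), while the 3 double knockouts had these alleles plus a positive aMyHC Cre, a recombinase driven by the promoter of alpha-myosin heavy chain, a gene of heart muscle cells. The floxed alleles were thus common to both groups, whereas the transgene and the deletion occur together and cannot be told apart. The labels give an embryonic stage without the day.

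The authors' values are read numbers per gene, scaled by 1 factor in each heart and then rounded. The totals were 17861435 to 18439201 per heart, from an estimated 12960481 to 25837820 reads, and the lowest estimate for a member in any heart was 170 reads, for Tk2. Rbpms was lower in every knockout than in every control (log2 fold change -2.53, SE 0.22, limma adjusted p = 3.25e-04), as was Rbpms2 (-0.84, SE 0.12, limma adjusted p = 0.00207). Of 12 cardiomyocyte markers, 1 was lower and 0 were higher in the knockouts, where 8.56% of all genes tested were lower and 8.61% higher. Their summed level was 890265 to 950458 in the controls and 814145 to 884894 in the knockouts. The labels do not say whether the hearts came from separate litters, so p-values measure the spread between these hearts.

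Purine nucleotides are made on a ribose phosphate scaffold. PRPP synthetases make the activated sugar, PPAT commits it to the pathway, and a chain of enzymes builds IMP, from which separate branches lead to AMP and GMP. Pyrimidines are made as a ring first and joined to the sugar later, by CAD, DHODH and UMPS. Ribonucleotide reductase converts ribonucleotides to deoxynucleotides, and thymidylate synthase adds the methyl group that marks thymidine, using a folate. Folate carries one-carbon units that come largely from serine through the SHMT and MTHFD enzymes, and these units enter both the purine ring and thymidylate. Many of these enzymes are known to be most abundant in dividing cells, and embryonic cardiomyocytes still divide.

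The stretches before the transcript start of 4 enzyme genes that fell are shown here, because the 2 ribonucleotide reductase genes moved together and all 4 hold the letters CCAAT, known from the binding site of the factor NF-Y. They were chosen after the values were seen. Paics, Atic and Mthfd1 also fell and hold these letters in their promoter windows. Each sequence is the 120 bases before the RefSeq start in the build GRCm38.p6, on the strand of the gene, with CCAAT or its reverse complement in capitals. Their positions are chr7:102441575-102441694 (plus strand) for Rrm1, chr12:24708134-24708253 (plus) for Rrm2, chr16:91646973-91647092 (minus) for Gart and chr11:60811266-60811385 (minus) for Shmt1.
Rrm1: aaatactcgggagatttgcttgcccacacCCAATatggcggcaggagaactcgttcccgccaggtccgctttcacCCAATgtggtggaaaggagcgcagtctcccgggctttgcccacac
Rrm2: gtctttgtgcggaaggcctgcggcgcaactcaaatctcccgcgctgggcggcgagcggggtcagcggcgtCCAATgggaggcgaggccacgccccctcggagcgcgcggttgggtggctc
Gart: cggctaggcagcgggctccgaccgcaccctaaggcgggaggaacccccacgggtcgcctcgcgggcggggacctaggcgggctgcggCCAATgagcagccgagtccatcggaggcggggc
Shmt1: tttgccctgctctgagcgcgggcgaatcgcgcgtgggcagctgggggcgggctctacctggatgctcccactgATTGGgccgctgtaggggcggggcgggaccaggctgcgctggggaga

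The match began 91 and 45 bases before the start in Rrm1, 50 bases before it in Rrm2 (where the last 13 bases shown are exon in GENCODE), 33 in Gart and 47, in the reverse orientation, in Shmt1. In GENCODE the Shmt1 gene reaches to 60811718, so its stretch lies inside the gene there, outside any exon. RefSeq promoter windows of 250 bases before and 50 after the start were found for 34 of the 37 enzymes. In either orientation CCAAT stood in the windows of 12 of these 34 (35.3%), of 7 of the 14 that fell (50%) and of 5 of the 20 that did not pass (25%), against 42.3% of the 10707 tested genes with a window and 41.1% of the 27025 genes in the table. The E2F letters TTTCGCGC, TTTGGCGC or TTTCCCGC were found on either strand in 2 of 34 (5.88%), Ppat and Prps2, against 3.89% of the tested genes and 2.12% of all genes in the table. The MYC E-box CACGTG was found in 6 of 34 (17.6%), against 11.4% and 8.09%, and the ATF4 letters TGATGNAA in 1 of 34 (2.94%), against 2.72% and 4.51%. No motif contains the letters of another, and the E2F variants were counted together. A match is a description of these letters, not of a bound site.

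In the knockouts 16 of the 37 enzymes fell and 0 rose, which is 43.2% of them, at an adjusted p under 0.05 in limma. Among all 15556 genes tested, 1331 (8.56%) passed in the lower direction and 1339 (8.61%) in the higher direction. The same shares belong beside each subgroup and list count below. With the hearts scaled to equal totals the split was 1091 lower and 1569 higher, and 14 of the 37 enzymes passed as lower. The median log2 fold change of the 37 was -0.21, against 0.002 for all genes tested. The point estimate was below 0 for 33 and above 0 for 4. All 3 knockouts lay below all 3 controls for 23 enzymes, and above them for 1, where 17.9% and 17.5% of all tested genes separated in those directions. The changes were of modest size: the largest fall left 63.9% of the control level, and every value lay between -0.65 and 0.27 on the log2 scale. In whole hearts a smaller number of cells of a type and less RNA per cell cannot be told apart.

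**Figure D1:**
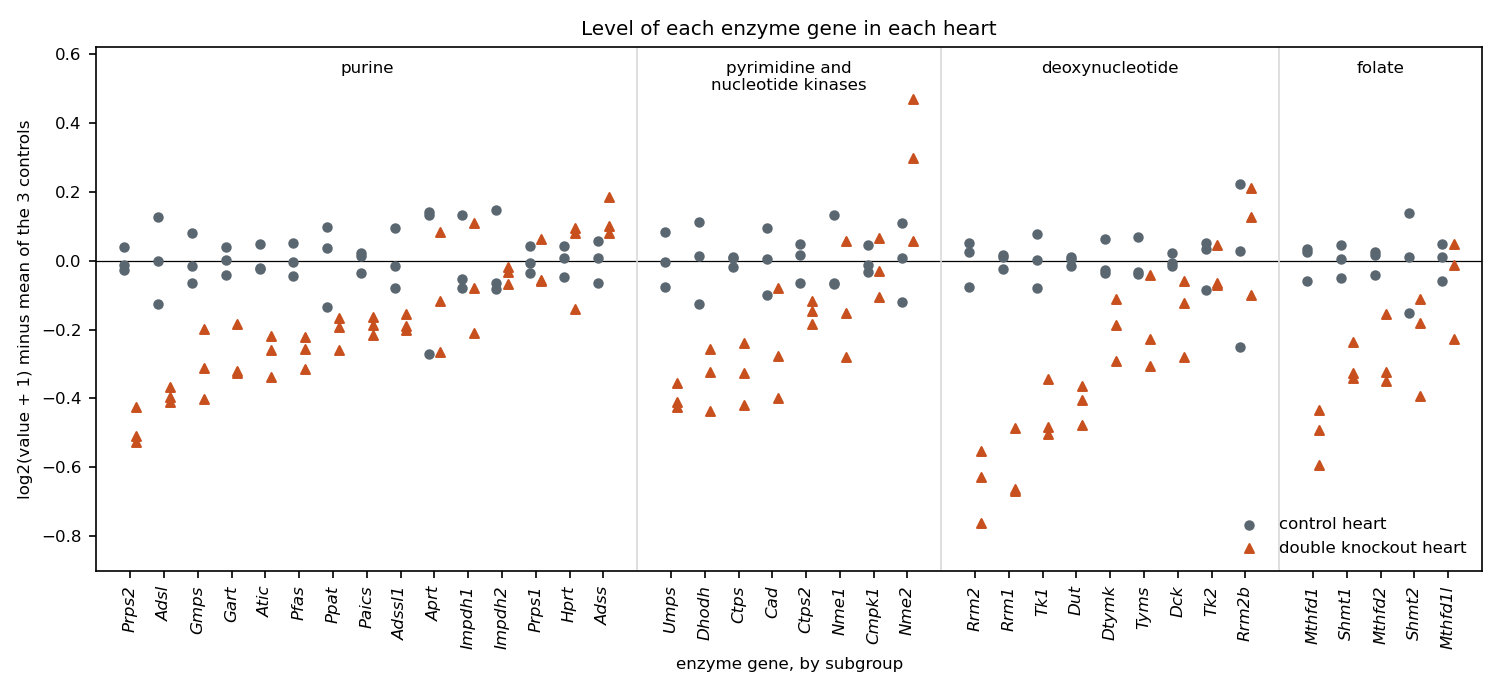
Each point is 1 heart: the log2(value + 1) of an enzyme gene minus the mean of the 3 controls, with control hearts as circles and double knockout hearts as triangles, and genes ordered within 4 subgroups by their change. The triangles lie below all circles for 23 of the 37 genes, most widely for Rrm2 and Rrm1, and above them for Adss alone.

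The count of 16 rested partly on single hearts. It was 9 without control replicate 2 and 9 without knockout replicate 2, and 11 to 14 without each of the other hearts. In these 6 fits 4.51% to 7.88% of all genes tested passed as lower. A set of 9 enzymes passed under each of 15 alternatives tried, including without each heart: Rrm1, Rrm2, Tk1, Dut, Mthfd1, Prps2, Adsl, Umps and Ctps.

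The widest falls were in the supply of deoxynucleotides, where 4 of 9 genes fell and 0 rose (median -0.20). Rrm2 encodes the small, radical-bearing subunit of ribonucleotide reductase that is made in S phase (ENSMUSG00000020649; plus strand of mm10 chromosome 12, 24708241 to 24714146). It was at 4098, 4404 and 4480 in the control hearts, replicates 1 to 3 in order, against 2945, 2551 and 2799 in the knockout hearts in the same order. The groups were far apart, with means of 4327 ± 202 and 2765 ± 199 (SD, n = 3 each) and the log2 fold change was -0.65, with an SE of 0.07 and an adjusted p of 6.94e-04 in limma. Rrm1, the large catalytic subunit (ENSMUSG00000030978; plus strand of chromosome 7, 102441695 to 102469771), was at 4137, 4023 and 4123 in control hearts against 2922, 2585 and 2574 in knockout hearts. Its controls differed by little, at 4094 ± 62.2 against 2694 ± 198 in the knockouts (SD, n = 3 each), and in log2 terms it fell by 0.61 (SE 0.07, limma adjusted p = 6.96e-04). The 2 subunits thus fell by nearly the same amount, to 63.9% and 65.8% of the control mean. Rrm2b, the p53-induced small subunit that serves resting cells and DNA repair, did not pass. It was at 631, 552 and 455 in control hearts against 626, 591 and 505 in knockout hearts, with overlapping groups and a log2 difference of 0.08 (95% confidence interval -0.20 to 0.36, limma adjusted p = 0.718).

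Tk1, the cytosolic thymidine kinase of dividing cells, was at 1313, 1464 and 1390 in control hearts against 1093, 978 and 992 in knockout hearts. The groups did not overlap, and in log2 terms it fell by 0.44 (SE 0.07, limma adjusted p = 0.00385). Tk2, the mitochondrial thymidine kinase, was at 223, 245 and 242 against 225, 244 and 226. Its values overlapped almost wholly, with a log2 difference of -0.03 (95% confidence interval -0.25 to 0.19). Dut, which hydrolyses dUTP and so keeps uracil out of DNA, was at 1136, 1118 and 1140 in control hearts against 855, 812 and 878 in knockout hearts. It fell by 0.42 (SE 0.07, limma adjusted p = 0.00313), with a spread among controls of 11.7 around a mean of 1131.

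The remaining deoxynucleotide genes did not pass, although their groups did not overlap. Tyms, thymidylate synthase, was at 542, 584 and 544 in control hearts against 540, 450 and 475 in knockout hearts, so that knockout replicate 1 almost reached the controls (log2 difference -0.19, SE 0.09, limma adjusted p = 0.180). Dtymk, the kinase that takes dTMP to dTDP, was at 1174, 1181 and 1255 against 1114, 983 and 1056 (limma adjusted p = 0.0935). Dck, the deoxycytidine kinase of the salvage route, was at 690, 704 and 686 against 665, 637 and 571 (limma adjusted p = 0.225). In each of these 3 genes knockout replicate 1 was the highest of the knockouts.

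Of the 15 purine genes 7 fell and 0 rose (median -0.19), and the falls were found mainly in the chain that builds IMP. Of its 6 enzymes 5 fell, and the groups did not overlap for all 6. Among all genes tested 8.56% passed as lower and 17.9% separated in that direction. Adsl, adenylosuccinate lyase, which acts in that chain and again on the way to AMP (ENSMUSG00000022407; plus strand of chromosome 15, 80948490 to 80970946), was at 1594, 1741 and 1902 in control hearts against 1350, 1309 and 1322 in knockout hearts. The knockouts were tightly grouped, and its log2 fold change came to -0.39 (SE 0.08, limma adjusted p = 0.00720). Gart, a trifunctional enzyme of the same chain that uses a folate, was at 1293, 1325 and 1254 against 1136, 1034 and 1029, a fall of 0.28 (SE 0.07). Atic, which performs the last steps to IMP and also uses a folate, was at 1405, 1337 and 1339 against 1135, 1169 and 1076. It fell by 0.27 (SE 0.07), close to Gart. Pfas, the FGAR amidotransferase, was at 921, 886 and 862 in control hearts against 715, 745 and 762 in knockout hearts, a fall of 0.26 (SE 0.07). Paics, a bifunctional enzyme, was the most abundant of the chain, at 5378, 5161 and 5337 against 4645, 4728 and 4552. Its fall of 0.19 (SE 0.06, limma adjusted p = 0.0472) was the smallest that passed.

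Ppat, the amidotransferase that commits PRPP to purines, was at 896, 860 and 763 in control hearts against 747, 733 and 700 in knockout hearts. The groups were separate by a narrow margin, set by control replicate 3, and it did not pass (log2 difference -0.21, SE 0.08, limma adjusted p = 0.113). Ppat (ENSMUSG00000029246; minus strand of chromosome 5, 76913249 to 76951578) and Paics (ENSMUSG00000029247; plus strand, 76951307 to 76967509) lie head to head, and their exons share 272 bases on opposite strands, 6.15% of the exon length of Ppat and 8.67% of that of Paics. The ratio of Ppat to Paics was 0.167, 0.167 and 0.143 in control hearts against 0.161, 0.155 and 0.154 in knockout hearts, so the ratios overlapped (difference -0.02 on the log2 scale, exact two-sided permutation p = 1.0). The sources used here do not say whether counting used strand, so reads in the shared bases are uncertain between these genes. The exons of Gart likewise share 1014 bases, 19.7% of their length, with an antisense gene, whose mean value was 29.8.

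The calls of Pfas and Paics were lost when any 1 of the 6 hearts was left out, while those of Gart, Atic and Gmps were lost without control replicate 2, knockout replicate 2 or knockout replicate 3. Without each of these 3 hearts, 2 purine genes passed, Adsl and Prps2, and with embryo sex as a covariate 4 did, where 6.31% of all genes tested passed as lower. Some calls of the IMP chain also depended on the processing with all hearts kept. Paics passed in 4 of the 15 alternatives. It was also lost with limma-voom, no filter on low values, equal totals, quantile normalization and embryo sex. Pfas was also lost with equal totals and with embryo sex, and Atic with embryo sex.

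After IMP the picture was mixed, with 1 of 5 branch enzymes falling. Gmps, GMP synthetase, was at 2737, 2565 and 2477 in control hearts against 2259, 2089 and 1960 in knockout hearts, a fall of 0.30 (SE 0.07, limma adjusted p = 0.0189). Impdh1 and Impdh2 encode the dehydrogenases that start the GMP branch. Impdh2 was at 1693, 1672 and 1958 against 1748, 1731 and 1687, and Impdh1 at 649, 660 and 751 against 592, 649 and 739. Both overlapped between the groups, with log2 differences of -0.04 (95% confidence interval -0.21 to 0.13) and -0.06 (-0.28 to 0.16). The adenylosuccinate synthetases of the AMP branch lay on opposite sides of 0. Adss, the form found in most tissues, was at 856, 786 and 827 in control hearts against 935, 882 and 870 in knockout hearts, the only enzyme of the 37 with every knockout above every control (log2 difference 0.12, SE 0.07, limma adjusted p = 0.277). Adssl1, the muscle form, was at 2062, 1971 and 2224 against 1826, 1871 and 1810, with every knockout below every control (log2 difference -0.18, SE 0.07, limma adjusted p = 0.0886). Neither passed.

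Of the PRPP synthetases, which make the activated sugar, Prps2 fell and Prps1 did not pass. Prps2 (ENSMUSG00000025742; minus strand of chromosome X, 167346322 to 167382749) was at 1518, 1447 and 1463 in control hearts against 1098, 1036 and 1024 in knockout hearts. It fell to 71.3% of the control mean, the widest fall among the purine genes (log2 fold change -0.49, SE 0.07, limma adjusted p = 0.00145). Prps1 (ENSMUSG00000031432; plus strand of chromosome X, 140456613 to 140476140) was at 954, 903 and 921 against 888, 967 and 891, with overlapping groups and a difference of -0.02 (95% confidence interval -0.17 to 0.14). The salvage enzymes, which return free bases to nucleotides, did not pass either. Hprt, for hypoxanthine and guanine, was at 3056, 2872 and 2985 against 3169, 3137 and 2695, and Aprt, for adenine, at 824, 1090 and 1096 against 917, 828 and 1054. Both overlapped, with log2 differences of 0.01 (-0.16 to 0.18) and -0.10 (-0.38 to 0.18). Prps1, Prps2, Hprt and Ctps2 are X-linked, and the hearts differed in sex, with 2 female controls and 1 female knockout as read from Xist and Y-linked genes. With sex as a covariate Prps2 still passed and the other 3 still did not.

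Of the 8 pyrimidine and kinase genes 3 fell and 0 rose (median -0.20), all 3 on the route to UMP and CTP. Umps, which joins the pyrimidine ring to PRPP and makes UMP (ENSMUSG00000022814; minus strand of chromosome 16, 33954782 to 33967038), was at 645, 678 and 720 in control hearts against 532, 507 and 512 in knockout hearts. The knockouts differed by 13.2 (SD) around a mean of 517, and its log2 fold change came to -0.40 (SE 0.08, limma adjusted p = 0.00781). Ctps, CTP synthase (ENSMUSG00000028633; minus strand of chromosome 4, 120539868 to 120570276), was at 2732, 2740 and 2681 against 2302, 2169 and 2034, a fall of 0.33 (SE 0.07, limma adjusted p = 0.00843). Dhodh, the mitochondrial dehydrogenase of the route, was at 464, 511 and 548 against 424, 405 and 374, a fall of 0.34 (SE 0.09, limma adjusted p = 0.0349). Its call was lost in 4 of the 6 fits that left out a heart, those without control replicates 2 and 3 and without knockout replicates 2 and 3. It was also lost with no filter on low values and with embryo sex as a covariate.

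Cad, the trifunctional enzyme that starts the pyrimidine route, was at 1065, 1144 and 1219 in control hearts against 866, 942 and 1080 in knockout hearts. Knockout replicate 3 reached into the control range, and the difference of -0.25 (SE 0.09) did not pass (limma adjusted p = 0.0928). It passed without that heart, at a log2 value of -0.34. Ctps2, the second CTP synthase, was at 560, 518 and 548 against 499, 489 and 477, with separate groups but no call (limma adjusted p = 0.220). Cmpk1, the UMP and CMP kinase, was at 1425, 1370 and 1350 against 1446, 1354 and 1285. Its values overlapped. Nme1 and Nme2, nucleoside diphosphate kinases that phosphorylate purine and pyrimidine forms alike, lay on opposite sides of 0. Nme1 was at 814, 936 and 815 against 887, 768 and 703, and Nme2 at 387, 454 and 423 against 582, 517 and 437. Neither passed (limma adjusted p = 0.432 and 0.134), but without knockout replicate 3 Nme2 passed as higher, at a log2 value of 0.38. Their sequences are close, and a read-through gene annotated across both covers 48.9% of the Nme2 exons and 12.5% of those of Nme1, so their values are less certain.

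Among the 5 folate enzymes 2 fell and 0 rose (median -0.28), and both are cytosolic. Mthfd1, the trifunctional cytosolic enzyme that supplies formyl-tetrahydrofolate to purines (ENSMUSG00000021048; plus strand of chromosome 12, 76255298 to 76319803), was at 964, 1023 and 1029 in control hearts against 714, 744 and 666 in knockout hearts. It fell to 70.4% of the control mean (log2 fold change -0.51, SE 0.07, limma adjusted p = 0.00208). Shmt1, the cytosolic serine hydroxymethyltransferase, was at 863, 896 and 923 against 712, 706 and 759, a fall of 0.30 (SE 0.07, limma adjusted p = 0.0181). That call was lost without control replicate 2, control replicate 3 or knockout replicate 2. The 3 mitochondrial enzymes did not pass. Shmt2 was at 2469, 2762 and 3019 against 2087, 2535 and 2418, with knockout replicate 2 above the lowest control (limma adjusted p = 0.125). Mthfd2, the dehydrogenase known for its high level in embryos and tumours, was at 420, 440 and 437 against 345, 339 and 388. Its groups were separate and its value was close to the threshold (log2 difference -0.28, SE 0.09, limma adjusted p = 0.0598). Mthfd1l, which releases formate from mitochondria, was at 324, 309 and 333 against 275, 319 and 333, with a difference of -0.06 (95% confidence interval -0.29 to 0.16). A difference between the cytosolic and the mitochondrial enzymes was not tested as such.

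**Figure D2:**
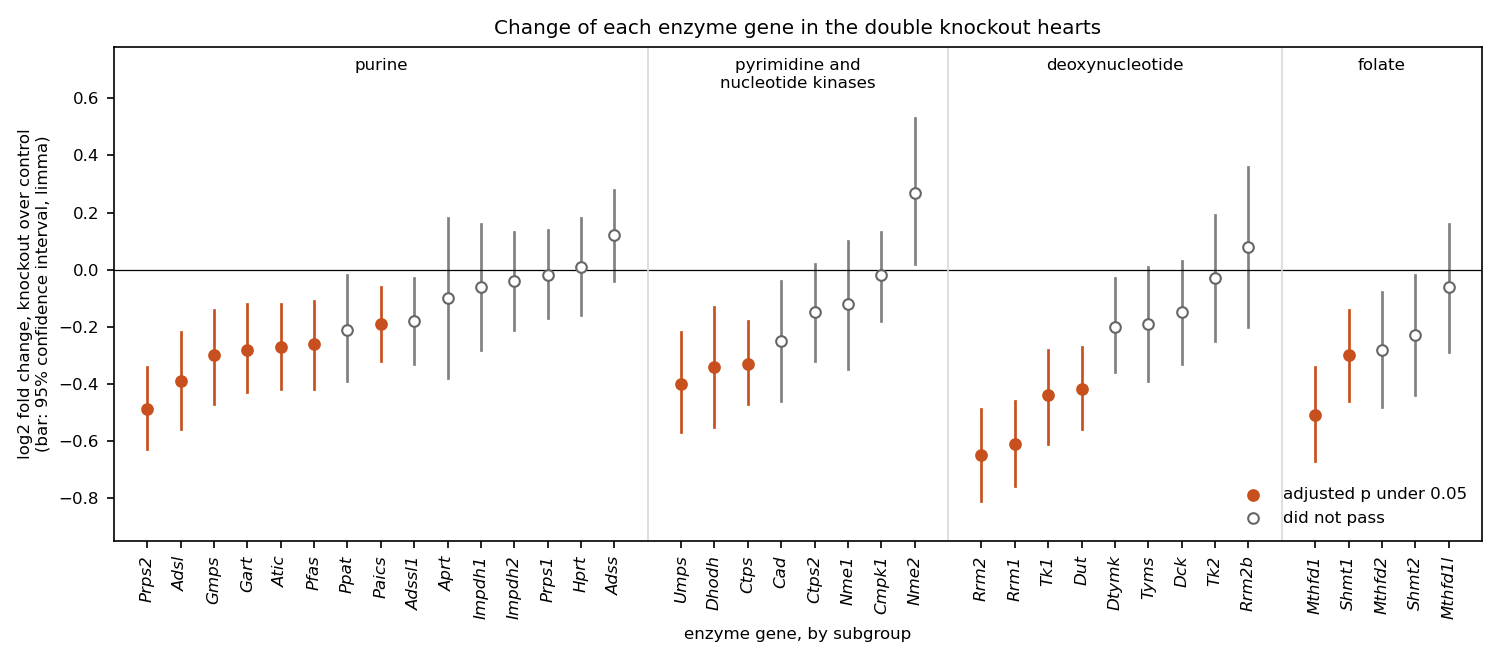
Each point is the log2 fold change of 1 enzyme gene in the 3 knockouts against the 3 controls, with its 95% confidence interval from limma as a bar and filled where the adjusted p was under 0.05. The 16 filled points all lie below 0, from -0.19 for Paics to -0.65 for Rrm2, and the open points of Adss, Nme2, Rrm2b and Hprt lie above 0.

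Related enzymes were then set against each other within each heart, in 11 pairs, so that a factor scaling both genes equally cancels. A difference between hearts in cell types, dividing cells or sex need not act equally on both genes, and then does not cancel. In 7 pairs the ratios of the 3 knockouts did not overlap those of the controls. The share of other gene pairs that separate in this way was not computed, so this count only describes these pairs. With 3 hearts against 3 the exact permutation test cannot go below p = 0.1, which each of these 7 reached, and none passed after adjustment over the 11 pairs (adjusted p = 0.157). The ratio of Rrm2 to Rrm2b differed most between the groups. It was 6.49, 7.97 and 9.83 in control hearts against 4.70, 4.31 and 5.53 in knockout hearts, a difference of -0.73 on the log2 scale, with a wide spread among the controls (SD 0.30). The ratio of Prps1 to Prps2 was nearly constant in the controls, at 0.629, 0.624 and 0.630, and was 0.809, 0.933 and 0.870 in the knockouts. That is a difference of 0.47 on the log2 scale, against an SD of 0.01 in the controls and 0.10 in the knockouts.

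The ratio of Tk1 to Tk2 was 5.87, 5.96 and 5.72 in control hearts against 4.84, 4.00 and 4.37 in knockout hearts, a difference of -0.41. Nme1 against Nme2 gave 2.10, 2.06 and 1.92 in control hearts against 1.52, 1.48 and 1.61 in knockout hearts, a difference of -0.40, although neither gene passed alone. Each of these pairs separated the groups by more than the spread within either. Adss against Adssl1 differed by 0.30, Mthfd2 against Mthfd1l by -0.21 and Ctps against Ctps2 by -0.18. In the pairs Impdh1 and Impdh2, Shmt1 and Shmt2, Hprt and Aprt, and Ppat and Paics the ratios overlapped, with differences from -0.07 to 0.11.

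**Figure D3:**
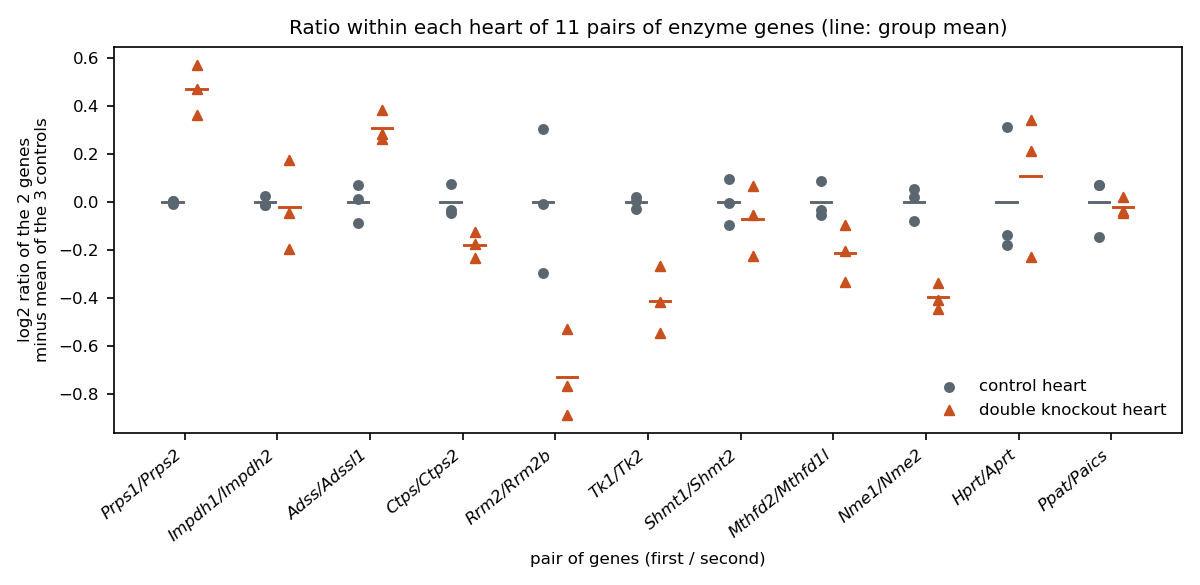
Each point is the log2 ratio of 2 enzyme genes in 1 heart minus the mean of the 3 controls, with circles for control hearts, triangles for double knockout hearts and lines for the group means. The triangles lie clear of the circles in 7 of 11 pairs, furthest below for Rrm2/Rrm2b and furthest above for Prps1/Prps2.

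To compare levels between genes, values were divided by the summed exon length in the annotation. Per kilobase of exon the highest control means were those of Hprt at 2305, Paics at 1686 and Rrm2 at 1562. The lowest were those of Rrm2b at 59.8, Tk2 at 66.3 and Mthfd1l at 72.6. In the knockouts the mean of Rrm2 per kilobase was 998 and that of Paics 1479. Rrm1 was at 372 in the controls and 245 in the knockouts on this scale. Its undivided control mean of 4094 was close to the 4327 of Rrm2, and the gap between them per kilobase comes from the longer summed exons of Rrm1. The length sums every annotated exon of a gene, whether or not these hearts use it. On this scale the abundant enzymes included some that fell and some that did not, with Hprt and Adssl1 (998 in the controls) beside Paics and Rrm2.

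The other genes of the same pathways were a list of 66, made by function but with earlier results of these data known. The 64 with a mean of at least 10 had a median of -0.01. Of these, 11 fell and 5 rose, where 8.56% and 8.61% of all genes tested passed in those directions. The 5 that rose are thus near the share among all genes. Dctd, the dCMP deaminase that supplies dUMP for thymidylate, had the widest fall, wider than any of the 37 enzymes. It was at 590, 636 and 646 in control hearts against 262, 282 and 326 in knockout hearts (log2 fold change -1.11, SE 0.10, limma adjusted p = 3.29e-04). Slc29a2, an equilibrative nucleoside transporter, fell by 0.58 (SE 0.10), Gmpr2, a GMP reductase, by 0.42 (SE 0.08) and Psat1, an aminotransferase of serine synthesis, by 0.38 (SE 0.07). Aldh1l2, the mitochondrial formyl-tetrahydrofolate dehydrogenase, fell by 0.34 (SE 0.08) and Ahcy, the adenosylhomocysteine hydrolase, by 0.32 (SE 0.08).

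The genes named here that rose have different roles. Nt5e, the cell-surface 5'-nucleotidase CD73 that makes adenosine from AMP, was at 234, 294 and 270 in control hearts against 484, 616 and 543 in knockout hearts. It rose by 1.04 (SE 0.12, limma adjusted p = 7.76e-04), and the knockouts lay far above the controls. Guk1, guanylate kinase, rose by 0.54 (SE 0.11) and Amt, the aminomethyltransferase of the glycine cleavage system, by 0.45 (SE 0.11). Pnp, purine nucleoside phosphorylase, rose by 0.37 (SE 0.10). When 1 heart was left out, 4 to 9 of the 64 genes fell and 2 to 5 rose, the fewest on both sides being without knockout replicate 2. In these 6 fits 4.51% to 7.88% of all genes tested passed as lower. Without knockout replicate 2, 700 (4.51%) of 15520 genes passed as lower and 619 as higher. Without knockout replicate 2 the calls of Aldh1l2, Amt, Ahcy and Pnp were lost. That of Ahcy was also lost without control replicate 3, knockout replicate 1 or knockout replicate 3. That of Pnp held without knockout replicate 1 alone. With embryo sex as a covariate 6 fell, where 6.31% of all genes tested passed as lower, and the call of Ahcy was lost. With no filter on low values 6 fell, where 3.37% of all genes tested passed as lower, and the call of Pnp was lost.

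Transcription factors that textbooks tie to these enzymes were listed for their values. Of 17, 6 fell and 1 rose, where 8.56% of all genes tested passed as lower and 8.61% as higher. The 1 that rose is thus near the share among all genes. E2f1, an activator of S phase genes, was at 733, 801 and 943 in control hearts against 518, 470 and 530 in knockout hearts (log2 fold change -0.70, SE 0.10). E2f8 fell by 0.73 (SE 0.09) and E2f7 by 0.54 (SE 0.09), both E2F repressors that peak in S phase, and the pocket protein gene Rbl1 fell by 0.54 (SE 0.11). The pocket protein gene Rb1 rose by 0.39 (SE 0.09), a call lost without knockout replicate 2. Mycn was at 568, 655 and 653 against 461, 407 and 411, a fall of 0.55 (SE 0.09), whereas Myc overlapped between the groups, at 498, 537 and 630 against 486, 530 and 529. Nfyc, a subunit of the CCAAT-binding NF-Y, fell by 0.36 (SE 0.06), while Nfya and Nfyb did not pass. Atf4, known to activate serine and mitochondrial folate enzymes, was at 2608, 2769 and 2725 against 3152, 2972 and 2923, with a difference of 0.16 (SE 0.06) that did not pass (limma adjusted p = 0.107).

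Genes of S phase and proliferation, none of them among the 37 enzymes, moved with these results. Of 26, 23 fell and 0 rose, with a median of -0.53 and a summed level of 44085 to 46405 in the controls and 29661 to 33402 in the knockouts. The sum over the 9 deoxynucleotide genes was 13944 to 14315 in the controls and 9831 to 10985 in the knockouts, and that over the 6 genes of IMP synthesis 11310 to 11487 and 9441 to 9728. The part of the S phase genes in the enzyme results was not tested.

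Markers of other cell types were counted as well, where 8.61% of all genes tested rose and 8.56% fell. Of endothelial markers 5 of 9 rose (summed level 20439 to 20801 in the controls, 23858 to 26217 in the knockouts), of epicardial markers 1 of 7 (4113 to 4614 and 4924 to 5651), of fibroblast markers 3 of 7 (90708 to 105485 and 118035 to 147863) and of macrophage markers 6 of 9 (1638 to 1808 and 2321 to 3259), and 0 of these fell. Of 5 smooth muscle and mural markers 1 fell, Myh11, and 0 rose. The point estimate was below 0 for 2 of these 5 and above 0 for 3, with a median log2 fold change of 0.24. Their summed level was 7644 to 8726 in the controls and 8966 to 9800 in the knockouts. Of 9 tested erythroid markers 0 passed, with summed levels of 38044 to 66308 in the controls and 30766 to 37947 in the knockouts. None of these markers was at 0 in all hearts, and the lowest was Hbb-bh1, at 1 to 6. In lists this short, the 1 epicardial marker and the 1 smooth muscle marker that passed do not show that those cells changed. The part of other cell types in the enzyme results was not tested.

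**Figure D4:**
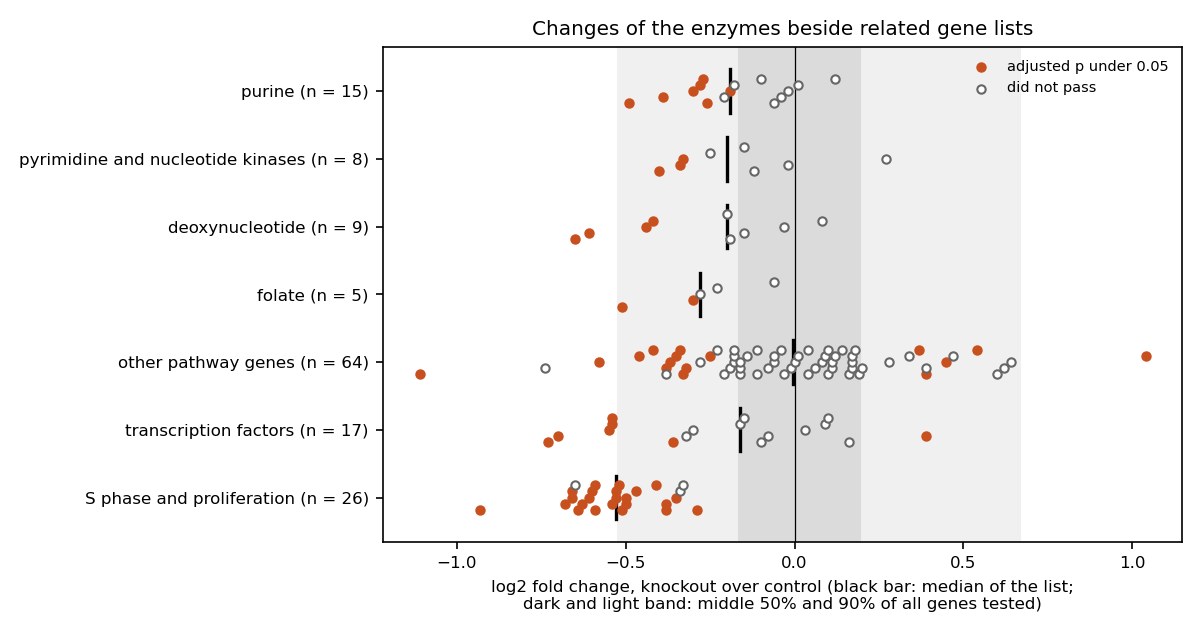
Each point is the log2 fold change of 1 gene, filled where the adjusted p was under 0.05, for the 4 enzyme subgroups, the other pathway genes, the transcription factors and the S phase genes, with the median of each list as a black bar and the middle 50% (-0.16 to 0.19) and 90% (-0.52 to 0.67) of all tested genes as bands. The medians of the 4 subgroups, from -0.19 to -0.28, lie between that of all genes and the -0.53 of the S phase genes.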

How the data were processed

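Poly(A) RNA of 6 mouse embryonic hearts, 3 controls and 3 double knockouts, was sequenced from stranded libraries in paired-end mode, per the labels' protocols. Groups and replicate numbers came from the sample titles. Trimmomatic, STAR 2.4.2a, featureCounts 1.5.0, DESeq, DESeq2 and the build mm10 are named in the submitters' processing notes. Which step each performed, and whether counting used strand, are not given in the sources used here. The deposited values are a score: the authors scaled the reads of a heart by 1 factor and rounded the result, as the spacing of the numbers shows.

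The spacing of the low values gave the factor per heart and hence the estimated depth. Values were analysed with limma 3.58.1 in R 4.3.3, with a variance trend, after a log2 transform with a pseudocount of 1. The 15556 genes whose mean reached 10 were tested, with Benjamini-Hochberg adjustment across all of them and a threshold of 0.05. Folds of low genes are understated on this scale. Positions and exon lengths came from GENCODE M21, promoters from RefSeq (GRCm38.p6). The fit was tested on simulated data. Other steps used Python 3.11.15 with numpy 2.4.6 and pandas 2.3.3, and figures matplotlib 3.10.9.

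The enzymes and lists were chosen with earlier results of these data known. Every enzyme is named, the other pathway genes by the 12 smallest p (some are not reported here), and factors where they passed, with Myc, Mycn and Atf4. Nfya and Nfyb were named after their values were seen, as were single markers. Alternatives were limma-voom on estimated reads, scaled by the trimmed mean of M values, pseudocounts of 0.1 and 10, no filter, at least 50 in 3 hearts, equal totals, quantile normalization, a replicate block, embryo sex and each heart left out.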

Additional observations from a re-analysis of the deposited data

How the results depend on the processing

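Across 15 alternatives, 9 of the 16 enzymes that passed did so under each, and 0 of the 37 enzymes took the opposite direction in any fit where it passed. Without each heart in turn 9 to 14 enzymes passed as lower and 0 to 1 as higher, and by subgroup 2 to 5 purine, 2 to 3 pyrimidine or kinase, 4 deoxynucleotide and 1 to 2 folate genes passed as lower. In these fits 4.51% to 7.88% of all genes tested passed as lower. Under the other alternatives 12 to 19 enzymes passed as lower, where 3.37% to 11.2% of all genes tested did. The 12 were with embryo sex as a covariate, where 4 purine genes and 6.31% of all genes tested passed as lower. The median of the enzymes was -0.17 with equal totals, where the median of all genes moved to 0.032. Without a filter on low values 909 genes of all passed as lower and 846 as higher, and without 1 heart 700 to 1225 as lower, the fewest without knockout replicate 2.

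With the replicate block 19 enzymes passed as lower, 4 of them folate genes. Calls rose among all genes as well, with 1743 (11.2%) passing as lower there against 1331 (8.56%) without the block. Whether the replicate numbers pair the hearts cannot be told from the values. Deviations of same-numbered hearts from their group means correlated at -0.041, -0.372 and 0.049 for numbers 1 to 3. No heart correlated best with its own number. However, same-numbered hearts were always of opposite sex, while control and knockout hearts of the same sex correlated at 0.118 to 0.266. The check thus also reads sex and cannot exclude a pairing. The block changed the calls of Cad, Shmt2 and Mthfd2, which passed only there, or for Cad also without knockout replicate 3. The cause of these changes was not tested. Hearts of a group differed by more than counting error, with a mean chi-square per gene of 8.38 to 16.9 between pairs of replicates, where counting error alone gives about 1. An enzyme that missed the threshold is not shown to be unchanged. Exact reads could not be recovered where 1 read is worth less than 1.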
